A study of Mus musculus with 24 samples.

Results

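The mitochondrial respiratory chain is built from many small proteins encoded in the nucleus. The genes described here are all those whose symbol in the platform's probe-to-gene table starts with Ndufa, Ndufb, Ndufc, Ndufs, Ndufv, Sdha to Sdhd, Uqcr, Cox4 to Cox8 or Atp5, or is Cyc1 or Cycs. This rule found 95 of the 22180 genes that have a probe set of their own on the Affymetrix MoGene 2.0 ST array. Of the 95, 81 were classed as structural subunits by their symbols alone: 34 of complex I, 4 of complex II, 8 of complex III, cytochrome c (Cycs), 17 of complex IV and 17 of ATP synthase. The prefixes also caught 12 assembly factors (Ndufaf1 to Ndufaf8 and Sdhaf1 to Sdhaf4) and 2 pseudogenes, Atp5c1-ps and Uqcrh-ps1. Ndufa4 is counted with complex I by its name, although the protein is now known as part of complex IV. Its paralogue Ndufa4l2 is counted with complex I by its name too.

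The 24 arrays measured total RNA of primary hepatocytes from male C57Bl6J mice in 8 groups of 3. Each cell pool carried an adenovirus (multiplicity of infection 5) with a short hairpin RNA, either shFOXA2, against the transcription factor Foxa2, or shlacZ, against a bacterial gene. Cells of either hairpin received 100 nM glucagon or 1 nM insulin for 4 h, each together with GW4064 (2 µM), which activates the nuclear bile acid receptor FXR, or with its solvent DMSO. All groups shared medium with 100 nM dexamethasone, and no group was kept without a hormone, without a virus or with another Foxa2 hairpin, so a glucagon minus insulin difference does not show which hormone moved a gene. Each of the 3 numbered experiments used cells pooled from 3 mice and holds 1 array of every group.

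Complex I takes electrons from NADH and complex II takes them from succinate, both passing them to ubiquinone. Complex III hands them to cytochrome c, and complex IV hands them to oxygen. Complexes I, III and IV pump protons, and ATP synthase lets them flow back to make ATP. In liver, glucagon signals fasting and turns on glucose output and fatty acid oxidation, which draw on mitochondrial ATP, whereas insulin signals the fed state. Nuclear respiratory chain genes are known targets of the factors NRF1, GABP (an ETS factor), YY1 and ERRα, which the coactivator PGC-1α (Ppargc1a) binds or assists.

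Promoters of subunit genes held the ETS and NRF1 motifs at a higher share than all promoters. The windows run from 250 bases before to 50 bases after each annotated start in the RefSeq table (GRCm38.p6), with 71 windows for 66 of the subunit genes and 32851 windows in all. The letters CCGGAAG (ETS), searched on both strands like all motifs here, stood in 17 of the 71 subunit windows, or 23.9%, against 8.86% of all windows. The NRF1 letters (GCGC, any base, then TGCGC) stood in 16, or 22.5%, against 4.60%, and AAGATGGCG (YY1) in 6, or 8.45%, against 1.40%. TCAAGGTCA (ERR) stood in 2, or 2.82%, against 0.423%. The cyclic AMP response element TGACGTCA stood in 4, or 5.63%, against 1.79% of all windows. Its shorter form TGACG, which is part of the full element, stood in 27, or 38.0%, against 20.8%. The subunit windows were richer in G and C, with a median of 57.7% against 52.7%, and this was not adjusted for. Subunit genes that were higher under glucagon (below) had 21 windows. Of these, 11 (52.4%) held the ETS letters, 8 (38.1%) the NRF1 letters and 8 (38.1%) the short form TGACG. The YY1 letters stood in 2 (9.52%), the ERR letters in 1 (4.76%) and the full cyclic AMP response element in 0. Ndufa5 and Atp5j each have more than a single window here, and Ndufa2 and Uqcrc2 have none. The Ndufa5 windows overlap and hold the same NRF1 site, which is counted in each. The 5 promoters printed here belong to genes whose values the results turn on. Each runs from 200 bases before to 30 bases after the start and is written 5′ to 3′ on the gene's strand, with motif matches other than TGACG in capitals. They are Ndufv3 (chr17:31519915-31520144, plus strand), Uqcrh (chr4:116075041-116075270, minus strand), Cox6b1 (chr7:30626085-30626314, minus strand), one of the annotated starts of Atp5j (chr16:84834947-84835176, minus strand) and Sdhd (chr9:50603820-50604049, minus strand).
Ndufv3: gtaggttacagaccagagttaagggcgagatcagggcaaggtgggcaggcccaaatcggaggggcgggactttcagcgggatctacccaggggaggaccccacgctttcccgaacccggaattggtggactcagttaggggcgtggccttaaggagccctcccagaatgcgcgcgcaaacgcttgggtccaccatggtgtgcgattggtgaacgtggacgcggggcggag
Uqcrh: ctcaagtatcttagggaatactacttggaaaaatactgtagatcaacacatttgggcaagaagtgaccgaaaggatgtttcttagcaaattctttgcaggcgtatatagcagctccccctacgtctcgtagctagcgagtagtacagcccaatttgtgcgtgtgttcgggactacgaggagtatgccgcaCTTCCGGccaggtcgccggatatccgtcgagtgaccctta
Cox6b1: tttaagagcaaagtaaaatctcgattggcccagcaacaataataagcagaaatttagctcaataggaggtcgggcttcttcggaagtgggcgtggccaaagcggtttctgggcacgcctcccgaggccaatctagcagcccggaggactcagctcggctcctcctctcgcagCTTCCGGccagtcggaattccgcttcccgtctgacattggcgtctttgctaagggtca
Atp5j: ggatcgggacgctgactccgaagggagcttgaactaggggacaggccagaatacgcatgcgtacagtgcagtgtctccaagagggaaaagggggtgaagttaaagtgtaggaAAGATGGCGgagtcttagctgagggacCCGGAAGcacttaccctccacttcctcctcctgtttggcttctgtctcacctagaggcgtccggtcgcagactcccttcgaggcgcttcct
Sdhd: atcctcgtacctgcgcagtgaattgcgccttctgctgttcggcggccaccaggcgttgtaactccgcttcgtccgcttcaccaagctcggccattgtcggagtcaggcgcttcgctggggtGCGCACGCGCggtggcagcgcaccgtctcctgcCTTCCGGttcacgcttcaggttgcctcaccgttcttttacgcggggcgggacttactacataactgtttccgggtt
The capitals are the ETS letters (CTTCCGG where read on the other strand) in Uqcrh, Cox6b1, Atp5j and Sdhd, the YY1 letters in Atp5j and the NRF1 letters in Sdhd. The Ndufv3 window has none of these longer motifs, which says only that they are not in this window. The other Atp5j window (chr16:84835596-84835825, minus strand), which is not printed, has none of them either. The motifs are matches of letters and not measured binding.

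The deposited values were on a log2 scale between 1.46 and 13.50, and array medians lay between 3.21 and 3.28. Foxa2 was 5.54 to 7.21 (median 6.44) on the shFOXA2 arrays, against 6.07 to 7.72 (median 6.70) on the shlacZ arrays. It was lower in the shFOXA2 array of 12 of 12 matched pairs, by 0.43 on average (SE 0.072, limma adjusted p = 0.0613, and 0.0194 with the experiment as a block), although the ranges overlap. The mean differences in experiments 1, 2 and 3 were -0.51, -0.66 and -0.12, so the knockdown was partial and weakest in experiment 3. The hepatocyte markers Alb, Apoa1, Ttr, Serpina1c, Cps1 and Hnf4a averaged 10.52 to 11.14 (median 10.96) under glucagon and 10.06 to 10.83 (median 10.56) under insulin, and 3 of the 6 (Cps1, Hnf4a and Ttr) passed the test as higher under glucagon. Of the 5 cholangiocyte markers tested, 1 (Sox9, -1.20) was lower, and their mean was 3.76 to 4.06 under glucagon and 4.00 to 4.57 under insulin, with Krt7, Epcam and Cftr near the array median. None of the macrophage, stellate, endothelial, lymphocyte, erythroid and muscle markers passed. With the experiment as a block, 1 macrophage marker (Cd68, 0.24), 2 of the stellate cell (Lrat, 0.19, and Reln, 0.25) and 1 of the endothelial cell (Cdh5, 0.16) were higher under glucagon, and 1 muscle marker (Acta1, -0.35) and 2 cholangiocyte markers (Sox9 and Krt19, -0.53) were lower. These markers' part in the results below was not tested. In such bulk RNA, a smaller share of a cell type and less RNA per cell cannot be told apart.

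Probe signals of subunit genes were mostly well above the array median. Of the 95 genes, 83 had a mean level of 4 or more over the 24 arrays, against 9041 of all 22180 genes. The 10 subunits under 4 were 7 genes of complex IV (Cox4i2, Cox6a2, Cox6b2, Cox7a1, Cox7b2, Cox8b and Cox8c), Ndufs5 and Ndufb11 of complex I, and Atp5j2 of ATP synthase. Cox6a2, Cox7a1 and Cox8b are the forms of muscle and heart, and 6 muscle marker genes had a median level of 2.95 here. Mean levels ran from 2.97 (Ndufs5) to 10.29 (Ndufb9) in complex I, 7.57 (Sdhc) to 9.76 (Sdha) in complex II, 5.71 (Uqcr11) to 11.60 (Uqcrb) in complex III, 2.50 (Cox8b) to 10.94 (Cox6a1) in complex IV and 3.18 (Atp5j2) to 11.60 (Atp5b) in ATP synthase. Signals of different probe sets depend on the probes, so these values do not rank the genes by abundance.

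Some subunit genes of complexes I to IV and of ATP synthase were higher under glucagon than under insulin, by small amounts, and no subunit passed the test as lower. Averaged over hairpin and drug, 21 of the 81 subunits rose and 0 fell. All 95 genes together gave 23 higher and 2 lower, while over all 22180 genes 7.38% were higher and 8.85% lower (limma, Benjamini-Hochberg adjusted p under 0.05). Those 21 rises lay in complexes I (9 of 34), II (2 of 4), III (2 of 8), IV (3 of 17) and ATP synthase (5 of 17). The median difference of the 81 subunits was 0.13, against 0.005 for all genes, and 74 of the 81 differences were above 0. Bright probe sets pass such a test more often, so the 71 subunits with a mean above 4 were also set against the 9041 genes of that kind: 26 were higher and 0 lower, against 16.7% higher and 21.8% lower of those 9041.

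**Figure D1:**
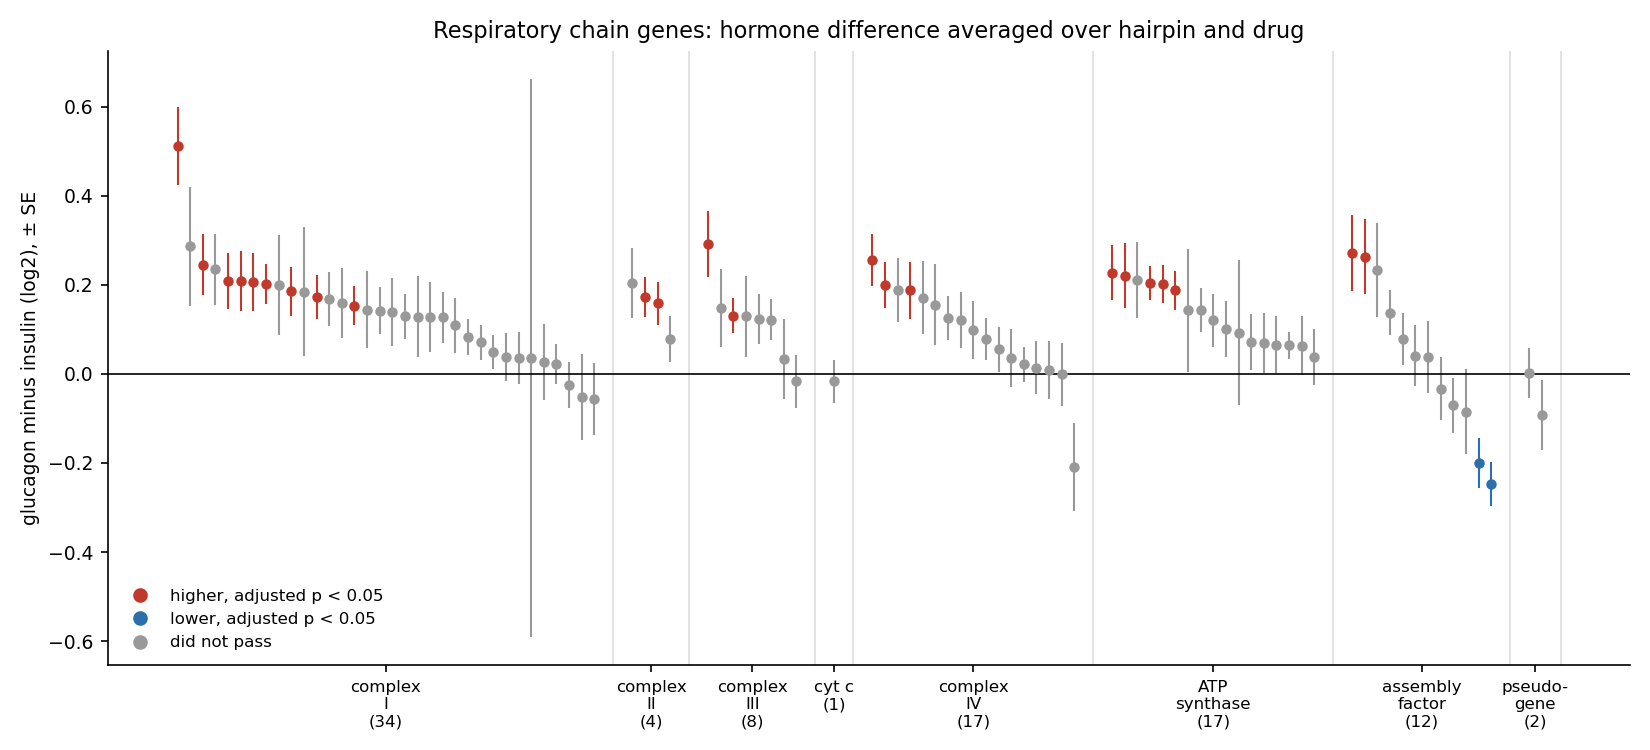
Difference in log2 level between glucagon and insulin (± SE), averaged over hairpin and drug, for each of the 95 genes, by complex. Red marks genes that passed as higher, blue those that passed as lower and grey those that did not pass; Ndufv3 stands highest at 0.51, and the 2 lower genes, Sdhaf2 and Sdhaf3, are assembly factors. The one very wide error bar is Ndufa4l2 (0.04, SE 0.63).

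The 23 rises ran from 0.13 to 0.51 on the log2 scale, or 9.51% to 42.5%, with a median of 0.20. All 25 genes called in either direction had the same sign in all 3 experiments. No gene of the 95 had all 12 glucagon arrays on one side of all 12 insulin arrays, whereas 3.07% of all genes did. Arrays of the same experiment were alike, and with the experiment as a block 41 genes were higher and 2 lower (37 of the 81 subunits higher, 0 lower), against 12% and 12.6% of all genes. With 1 difference per experiment as the unit (n = 3), 18 were higher and 2 lower, against 7.52% and 8.72%. Without experiment 1, 2 or 3, and so with fewer arrays, the fit called 5, 9 or 18 of the 95 genes. Of the 25 genes called on all arrays, 5, 8 or 15 were still called. The share of all genes called in these smaller fits is not given here, so the drop cannot be set against that of other genes.

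Complex I had the widest spread of responses. Ndufv3, the small accessory subunit of the NADH-oxidising flavoprotein module, had a level of 4.70 to 5.50 (median 5.07) on the 12 glucagon arrays, against 4.17 to 4.84 (median 4.63) on the 12 insulin arrays. Its ranges overlap, but the glucagon array was higher in 12 of 12 pairs of the same experiment, hairpin and drug. It rose by 0.51 (SE 0.087, adjusted p = 2.1e-04), with 0.56, 0.63 and 0.34 in experiments 1, 2 and 3. Ndufc1, a membrane-arm accessory subunit, was 6.97 to 7.63 (median 7.21) on glucagon arrays, against 6.70 to 7.21 (median 7.04) on insulin arrays. It was higher in 12 of 12 pairs and rose by 0.25 (SE 0.069, adjusted p = 0.0156), although the ranges overlap. Ndufa5, an accessory subunit of the peripheral arm, was 6.56 to 7.19 (median 6.85) under glucagon, against 6.37 to 6.94 (median 6.71) under insulin. It too was higher in 12 of 12 pairs and rose by 0.21 (SE 0.063, adjusted p = 0.0269), with overlapping ranges.

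The other complex I genes that rose did so by 0.15 to 0.21. They include the iron-sulphur subunit Ndufv2 (0.20, adjusted p = 0.0025), Ndufs3 of the ubiquinone module (0.19, adjusted p = 0.0247) and the accessory subunits Ndufa2 (0.17), Ndufa6 (0.21) and Ndufb5 (0.15), with adjusted p from 0.0184 to 0.0373. Ndufa4 rose by 0.21 (adjusted p = 0.0342), but with 0.41 in experiment 1 against 0.13 and 0.08 in the others. Ndufb9, a membrane-arm subunit, had the largest difference that did not pass, 0.29 (SE 0.13, adjusted p = 0.181). Its glucagon array was nevertheless the higher one in 12 of 12 pairs. Its 12 glucagon arrays spanned 10.07 to 11.05 and its 12 insulin arrays 9.73 to 10.57, and its means in the 3 experiments differed by up to 0.68. With the experiment as a block its adjusted p was 4.2e-05.

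The catalytic core of complex I was uneven. Of its subunits, Ndufv2 and Ndufs3, given above, passed the test. Ndufv1, which carries the NADH site, had a difference of 0.14 (adjusted p = 0.0788), and Ndufs8 and Ndufs7, which carry iron-sulphur clusters next to ubiquinone, had 0.20 and 0.13 (adjusted p = 0.297 and 0.447). None of these passed without the block. All 3 passed with it, at 0.0499, 0.0028 and 0.0249. Ndufs1, the large iron-sulphur subunit of the core, had 0.03 (SE 0.086, adjusted p = 0.906). Outside the core, Ndufab1, the acyl carrier protein, had 0.02 (SE 0.046, adjusted p = 0.849). The accessory subunit Ndufs5 has only a dim probe set of its own (mean 2.97, difference -0.05). A brighter set shared with its pseudogene had a mean of 6.80 and a difference of 0.17, untested here.

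**Figure D2:**
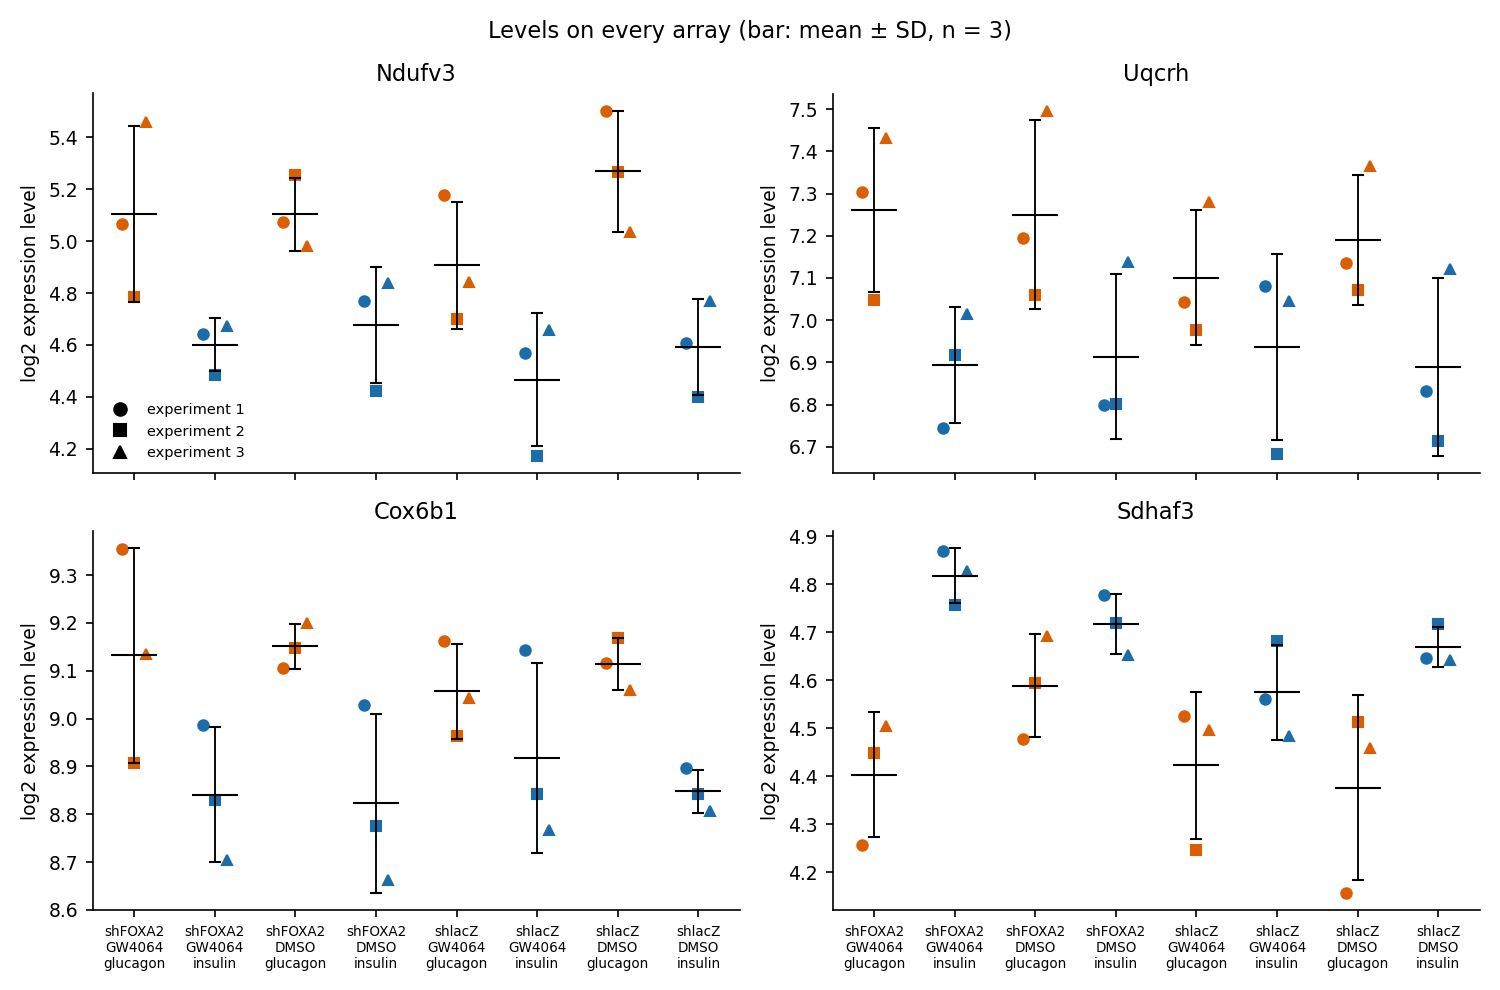
Log2 level of Ndufv3, Uqcrh, Cox6b1 and Sdhaf3 on each of the 24 arrays by hairpin, drug and hormone (orange, glucagon; blue, insulin; marker shape, experiment; bar, mean ± SD, n = 3). For Ndufv3 and Cox6b1 each glucagon array stands above the insulin array of the same experiment, hairpin and drug, while Sdhaf3 is lower under glucagon in most pairs; the vertical axes do not start at 0.

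Succinate dehydrogenase, complex II, had 2 of its 4 subunits higher. Sdha, the flavoprotein that oxidises succinate, rose by 0.16 (SE 0.048, adjusted p = 0.0269, higher in 11 of 12 pairs). Sdhd, one of the membrane anchors, rose by 0.17 (SE 0.045, adjusted p = 0.0102, higher in 10 of 12 pairs). The other anchor, Sdhc, had a larger difference that did not pass, 0.21 (SE 0.079, adjusted p = 0.0904), although its glucagon array was higher in 12 of 12 pairs and its adjusted p was 0.0045 with the block. The iron-sulphur subunit Sdhb had 0.08 (adjusted p = 0.410).

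The dedicated assembly factors of complex II moved in opposite directions. Sdhaf3, needed for iron-sulphur insertion into Sdhb, was 4.16 to 4.69 (median 4.49) under glucagon, against 4.49 to 4.87 (median 4.70) under insulin. It was lower under glucagon in 10 of 12 pairs, with overlapping ranges, and fell by 0.25 (SE 0.050, adjusted p = 0.0011). Sdhaf2, which helps attach the flavin to Sdha, was lower in 11 of 12 pairs and fell by 0.20 (SE 0.056, adjusted p = 0.0164). Sdhaf4, which binds flavinated Sdha, was 4.04 to 4.98 (median 4.47) under glucagon, against 3.90 to 4.72 (median 4.28) under insulin. It rose by 0.27 (SE 0.086, adjusted p = 0.0336), was higher in 9 of 12 pairs and overlapped widely. Sdhaf1 had a difference of -0.03 (adjusted p = 0.857).

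Of the complex I assembly factors, 1 of 8 passed. Ndufaf3, which acts with Ndufaf4 on the ubiquinone module, was 3.59 to 4.41 (median 4.29) under glucagon, against 3.68 to 4.21 (median 3.91) under insulin. It rose by 0.26 (SE 0.084, adjusted p = 0.0362), was higher in 9 of 12 pairs and has overlapping ranges near the array median. Its partner Ndufaf4 had a difference of -0.08 (SE 0.095, adjusted p = 0.686). The 12 assembly factors had a median difference of 0.04, and with the block 4 were higher and 2 lower. The 2 pseudogenes had levels of 2.99 (Atp5c1-ps) and 2.09 (Uqcrh-ps1) and differences of -0.09 and 0.00, neither past the test.

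In complex III, Uqcrh, the acidic hinge protein that docks cytochrome c, changed most. It was 6.98 to 7.50 (median 7.17) under glucagon, against 6.68 to 7.14 (median 6.88) under insulin. The ranges overlap, with experiment 3 high for both hormones, and the glucagon array was higher in 11 of 12 pairs. Uqcrh rose by 0.29 (SE 0.074, adjusted p = 0.0081), with 0.31, 0.26 and 0.31 in the 3 experiments. The core protein Uqcrc2 rose by 0.13 (SE 0.039, adjusted p = 0.0241). Its partner Uqcrc1 had nearly the same difference, 0.13, with a wider error (SE 0.091, adjusted p = 0.443). Cyc1, the haem protein cytochrome c1, had 0.15 and the Rieske iron-sulphur protein Uqcrfs1 had 0.12 (adjusted p = 0.335 and 0.0854). Uqcrb, which binds near the ubiquinone site, had -0.02 (SE 0.060, adjusted p = 0.918), and Cycs, the soluble carrier cytochrome c, also had -0.02 (SE 0.049, adjusted p = 0.899).

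In complex IV, the subunits with a signal in these cells all had differences above 0. Cox6b1, on the side that faces cytochrome c, was 8.91 to 9.36 (median 9.13) under glucagon, against 8.66 to 9.14 (median 8.84) under insulin. It was higher in 12 of 12 pairs and rose by 0.26 (SE 0.058, adjusted p = 0.0033), with overlapping ranges. Cox8a rose by 0.20 (SE 0.052, adjusted p = 0.0089) and Cox6a1 by 0.19 (SE 0.063, adjusted p = 0.0482). The next in size, Cox7a2, had 0.19 and did not pass (adjusted p = 0.0846, and 0.0076 with the block). Among the others, Cox7c had 0.17, Cox7b 0.16, Cox5b 0.13, Cox4i1 0.12, Cox7a2l 0.10 and Cox5a 0.06, none past the test with or without the block. The 7 isoforms near the floor ran from -0.21 (Cox6a2, adjusted p = 0.195) to 0.08 (Cox8b), and none passed the test. At the level of these probes a change in Cox4i2, Cox6b2, Cox7a1, Cox7b2 or Cox8c may have been missed.

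ATP synthase had 17 of 17 differences above 0, and the 5 that passed belong to the peripheral stalk and the membrane part. Atp5h, subunit d of the peripheral stalk, was 9.01 to 9.75 (median 9.37) under glucagon, against 8.96 to 9.39 (median 9.13) under insulin. It rose by 0.23 (SE 0.061, adjusted p = 0.0120) and was higher in 10 of 12 pairs, with overlapping ranges. Atp5md, a small subunit linked to the pairing of ATP synthases, was 10.21 to 10.65 (median 10.34) under glucagon, against 10.02 to 10.48 (median 10.12) under insulin. It was higher in 12 of 12 pairs and rose by 0.22 (SE 0.072, adjusted p = 0.0405), again with overlapping ranges. Atp5j, coupling factor 6 of the stalk, rose by 0.20 (SE 0.039, adjusted p = 5.8e-04). The dimer-forming subunits Atp5k (e) and Atp5l (g) rose by 0.20 and 0.19 (adjusted p = 0.0018 and 0.0039). The catalytic head subunits Atp5b (β) and Atp5a1 (α) had 0.07 and 0.04, and Atp5c1 (γ), of the central stalk, had 0.07. None of the 3 passed, with SEs of 0.062 to 0.067 and adjusted p from 0.567 to 0.808, and a difference from the subunits that passed was not tested. The genes that encode the same ring subunit c, Atp5g1, Atp5g2 and Atp5g3, had 0.09, 0.14 and 0.21 (adjusted p = 0.821, 0.0568 and 0.113), and Atp5g2 and Atp5g3 passed with the block (0.0146 and 0.0045).

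The shift was spread over pairs of arrays and over signal levels between 4 and 11. The subunit median lay above 0 in 12 of 12 glucagon and insulin pairs, from 0.02 to 0.19 with a middle value of 0.12, and 43 to 71 of the 81 subunits were higher in a pair. The median of all genes lay between -0.02 and 0.01 in the same pairs. By signal level, the median of the subunits was 0.10 to 0.21 in each unit of log2 level between 4 and 11, where the median of all genes was -0.02 to 0.02. The 3 subunits above 11 (Atp5b, Uqcrb and Cycs) had a median of -0.02. The 6 subunits under level 3 had a median of 0.015, against 0.004 for all genes there. For the 4 subunits between levels 3 and 4 it was -0.021, against 0.015.

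**Figure D3:**
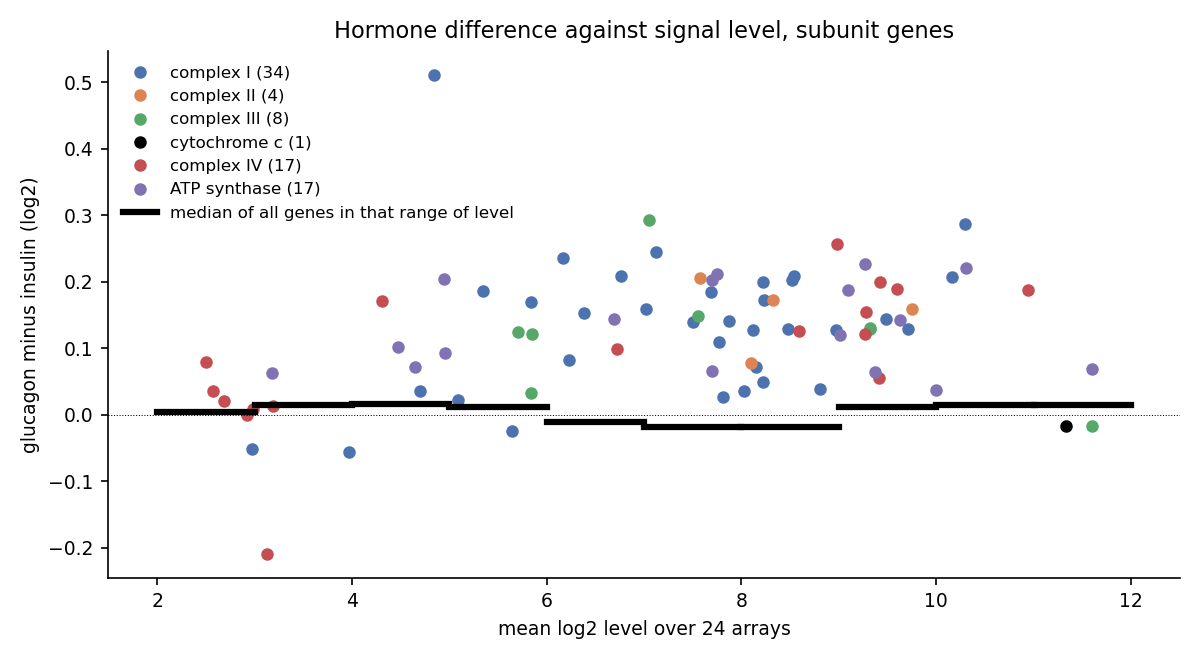
Difference in log2 level between glucagon and insulin, averaged over hairpin and drug, against the mean log2 level over 24 arrays, for the 81 subunit genes coloured by complex. The black steps are the median of all genes in each range of level and stay between -0.02 and 0.02, below most subunits between levels 4 and 11.

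**Figure D4:**
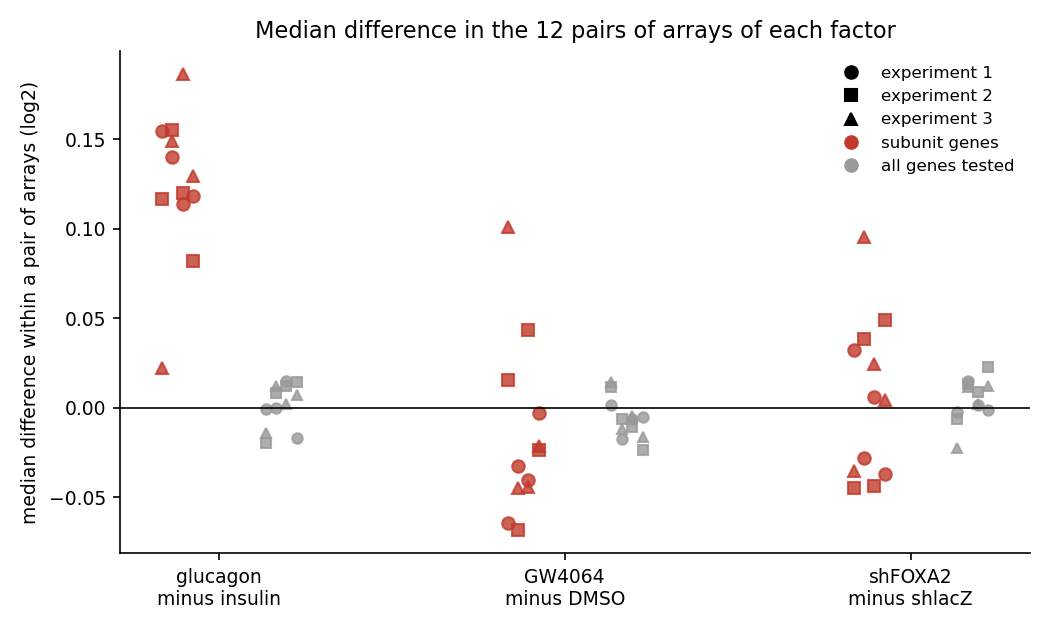
Median difference in log2 level within each of the 12 matched pairs of arrays for hormone, drug and hairpin, for the subunit genes (red) and for all genes tested (grey), with the marker shape giving the experiment. The 12 hormone pairs lie at 0.02 to 0.19 for the subunits, whereas the drug pairs (-0.07 to 0.10) and the hairpin pairs (-0.04 to 0.10) lie on both sides of 0.

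Within a single condition, with 3 arrays against 3, few of the 95 genes passed. In shFOXA2 cells with GW4064, Atp5j was higher by 0.29 (adjusted p = 0.0428) and Sdhaf3 fell by 0.42 (adjusted p = 0.0205), against 1.37% higher and 2.12% lower of all genes. In shFOXA2 cells with DMSO, 3 were higher, Sdhaf4 (0.70, adjusted p = 0.0202), Ndufv2 (0.37, adjusted p = 0.0178) and Atp5j (0.33, adjusted p = 0.0129), and 0 lower, against 2.12% and 2.67%. In shlacZ cells with GW4064, Atp5k was higher (0.33, adjusted p = 0.0409) and 0 were lower, against 1.29% and 1.8%. In shlacZ cells with DMSO, Ndufv3 (0.68, adjusted p = 0.0283) and Sdhd (0.35, adjusted p = 0.0295) were higher and 0 lower, against 1.71% and 2.98%. With the experiment as a block the counts of higher genes in these 4 conditions were 8, 12, 2 and 8, against 4.08%, 5.32%, 3.91% and 4.66% of all genes, and those of lower genes were 1, 0, 0 and 0, against 5.05%, 5.96%, 4.5% and 6.53%. The median differences of the 81 subunits were 0.13, 0.09, 0.13 and 0.15 in that order.

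Different genes passed in different conditions, and their differences elsewhere varied. Ndufv3 was above 0 in all 4 conditions, at 0.50, 0.43, 0.44 and 0.68. Sdhd had 0.18, -0.05, 0.22 and 0.35. Sdhaf4 had 0.01, 0.70, 0.36 and 0.02. These values were not shown to differ between conditions: no interaction of hormone with hairpin or with drug passed for any of the 95 genes (limma, 6 and 1 at an unadjusted p under 0.05), nor for any of the 22180 (0%). The largest interaction with the hairpin was Cox7b at 0.61 (SE 0.18, adjusted p = 1.00), and the largest with the drug was Atp5g1 at -0.51 (adjusted p = 1.00).

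GW4064 changed none of the 95 genes past the test. Averaged over hairpin and hormone, the GW4064 minus DMSO differences ran from -0.17 to 0.12 with a median of -0.01 and a median SE of 0.063. limma called 0 of the 95, with 2 at an unadjusted p under 0.05 (Ndufaf5, -0.16, and Ndufaf7, -0.12), against 0.00902% of all genes, which is 2 genes. With the experiment as a block it called 0 of the 95, against 0.0135% of all genes. Under glucagon the differences ran from -0.23 (Atp5h) to 0.16 (Ndufb11), with 0 called and 4 at an unadjusted p under 0.05. Under insulin they ran from -0.19 (Ndufaf5) to 0.31 (Atp5g1), with 0 called and 2 unadjusted. The subunit median was above 0 in 3 of 12 pairs. With so few genes of the whole array called, these counts do not set the respiratory chain apart from other genes.

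The Foxa2 hairpin likewise changed none of the 95 past the test, with Foxa2 itself only partly lowered (-0.43 on average, -0.12 in experiment 3). The shFOXA2 minus shlacZ differences, averaged over hormone and drug, ran from -0.21 (Cox7b) to 0.17 (Ndufb11) with a median of 0.01. limma called 0, with 3 at an unadjusted p under 0.05 (the third was Sdhaf3, 0.12), against 0.00902% of all genes. With the block it again called 0, against 0.0271% higher and 0.0496% lower of all genes. As with GW4064, so few genes of the whole array were called that these counts do not set the respiratory chain apart. Cox7b, a small subunit of complex IV, had the largest single difference, -0.51 under insulin (SE 0.13, unadjusted p = 8.1e-04, adjusted p = 0.427), where 0 of the 95 genes were called, 7 were at an unadjusted p under 0.05 and 0.00451% of all genes were called lower. Under glucagon Cox7b had 0.10 (SE 0.13, adjusted p = 1.00), with 0 of the 95 genes called and 1 unadjusted. The interaction of drug with hairpin also gave 0 calls, 4 at an unadjusted p under 0.05, with Ndufb11 largest at 0.39 (adjusted p = 1.00).

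Other mitochondrial gene lists did not share one direction under glucagon. The counts of the lists stand against 7.38% higher and 8.85% lower over all genes, or 12% and 12.6% with the block, and no list was tested as a whole. The regulators of mitochondrial biogenesis had 3 of 22 higher and 7 lower, with a median of -0.02. Ppargc1a, encoding PGC-1α, averaged 6.98 ± 0.79 under glucagon and 3.22 ± 0.47 under insulin (SD, n = 12 each), a rise of 3.76 (SE 0.27, adjusted p = 3.8e-09) that was seen in 12 of 12 pairs. Its relative Ppargc1b and the DNA polymerase subunit Polg2 rose by 0.29 and 0.32. Ppargc1b had a mean level of only 2.88, below the array medians, and was higher in 9 of 12 pairs. With 1 difference per experiment, limma gave Ppargc1b an adjusted p of 0.0512. Of the factors named above for respiratory chain promoters, some fell and others did not pass. Nrf1, the factor whose letters are shown above for Sdhd, fell by 0.53 (adjusted p = 2.0e-07), Gabpb1, a subunit of GABP, by 0.57 (adjusted p = 1.1e-06) and the PGC-1-related coactivator Pprc1 by 0.73 (adjusted p = 1.1e-07). Yy1 (-0.09, SE 0.067, adjusted p = 0.495) and Esrra, encoding ERRα (-0.01, SE 0.046, adjusted p = 0.961), did not pass. Gabpa, the DNA-binding subunit of GABP, and Tfam, which packages mitochondrial DNA, fell by 0.28 and 0.24. Yy1, Esrra, Gabpa and Tfam are named after their values were seen.

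**Figure D5:**
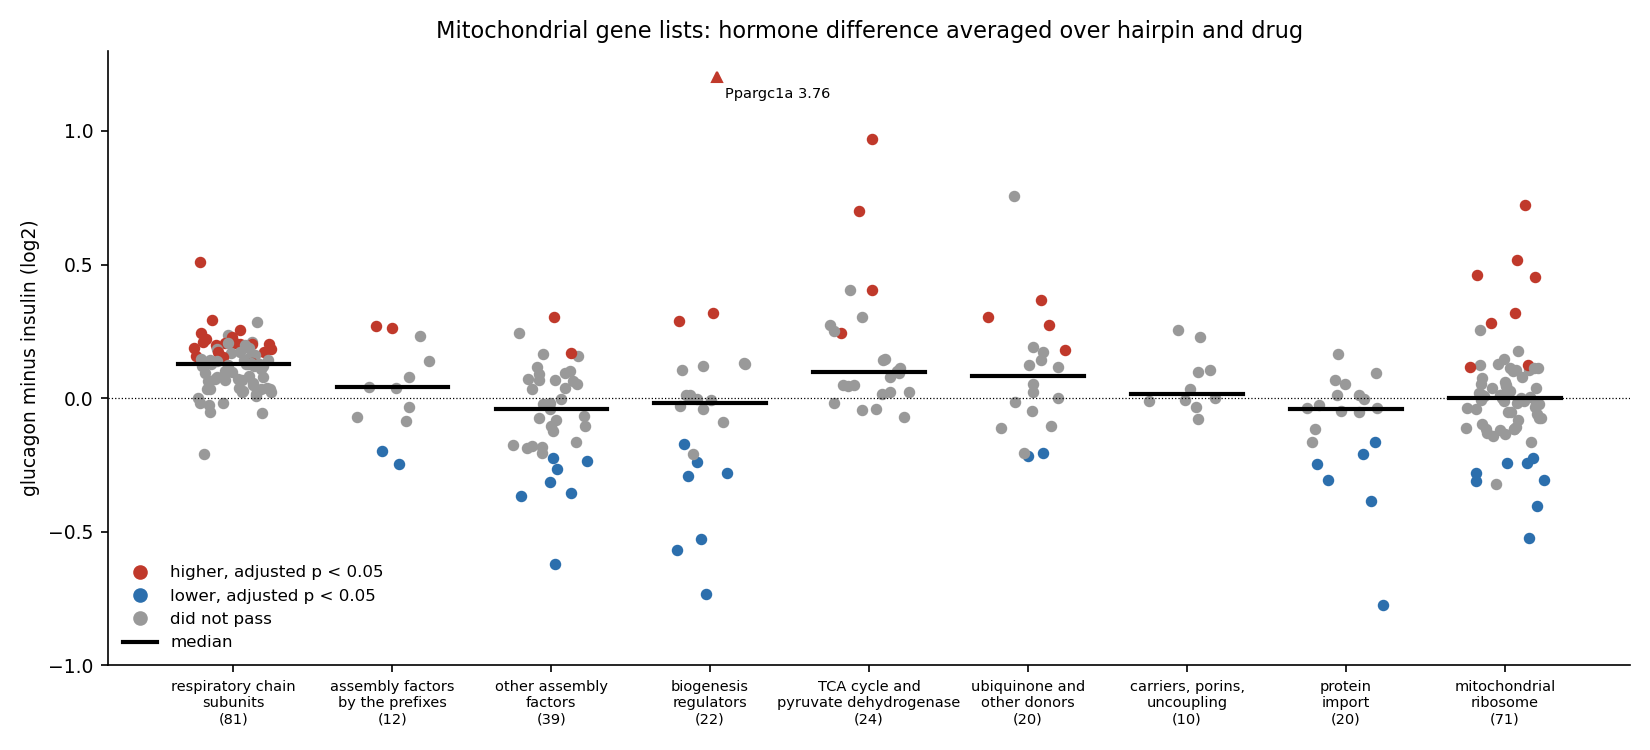
Difference in log2 level between glucagon and insulin, averaged over hairpin and drug, for each gene of 9 mitochondrial lists, with the number of genes under each name. Red and blue mark genes that passed as higher and lower, bars are medians, and the triangle marks Ppargc1a, drawn below its value of 3.76; the subunit median is 0.13, and the medians of the other lists run from -0.04 to 0.10.

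Pathways that feed electrons to the chain had medians above 0. Of 24 genes of the tricarboxylic acid cycle and pyruvate dehydrogenase, 4 were higher and 0 lower (9 and 0 with the block), with a median of 0.10. They include Fh1 (fumarase), which rose by 0.97 (adjusted p = 1.8e-12), the pyruvate dehydrogenase phosphatase Pdp2 (0.70) and the NADP-dependent isocitrate dehydrogenase Idh2 (0.40). Of 20 genes of ubiquinone synthesis and other electron donors, 4 were higher and 2 lower (8 and 3 with the block), and a median of 0.08, with Sqor, which oxidises sulphide, at 0.37, Coq8b at 0.30, Coq10a at 0.28, Pdss2 at -0.22 and Coq10b at -0.20. None of 10 genes for adenine nucleotide carriers, porins, uncoupling proteins and the ATP synthase inhibitor passed (2 higher with the block).

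The other assembly factors and protein import had more falls than rises, and the mitochondrial ribosome had as many of each. Of 39 assembly factors outside the symbol rule, 2 were higher and 7 lower, with a median of -0.04. Sco1, which delivers copper to complex IV, fell by 0.62 (adjusted p = 4.9e-08), Tmem186 of complex I assembly by 0.37 and Coa4 of complex IV assembly by 0.36, whereas Dmac2 (0.30) and Coa7 (0.17) rose. Of 20 genes of mitochondrial protein import, 0 were higher and 6 lower (1 and 7 with the block), led by the intermembrane-space chaperone Timm9 (fell by 0.77, adjusted p = 2.2e-08), the disulphide relay protein Chchd4 (fell by 0.39) and Timm22 (fell by 0.30). The mitochondrial ribosome had 8 of 71 higher and 8 lower (12 and 11 with the block) around a median of 0.00, not far from the shares over all genes. Mrps31 (0.72), Mrpl34 (0.52) and Mrpl42 (0.46) rose most, and Mrpl9 (-0.52), Mrps18b (-0.40) and Mrps23 (-0.31) fell most. The 13 subunits encoded in mitochondrial DNA had no probe set matched by symbol and were not analysed here.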

How the data were processed

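Biotinylated single-stranded cDNA from 300 ng of total RNA was hybridised to 24 one-colour arrays, per the labels. The deposited table holds log2 values per probe set for the 24 arrays, which the authors made with GeneSpring and with 3 technical replicates pooled per sample, per the series' design text; the normalization is not given in the sources used here. Of 41345 probe sets, 23521 had 1 gene symbol in the platform annotation, 1814 several and 16010 none; single-symbol sets were used, 23328 of which have a symbol in the RefSeq table (GRCm38.p6), and the set with the highest mean stood for a gene (11 of the 95 genes had several). The precision is limited by the number of arrays.

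limma 3.58.1 in R 4.3.3 fitted 1 mean per group over all 24 arrays (16 residual degrees of freedom), with Benjamini-Hochberg adjustment over 22180 genes and a threshold of 0.05; the fit was tested on simulated data. Averaged comparisons take the mean over the 4 conditions of the other factors. Experiment numbers in the labels pair the arrays: deviations from group means correlated in 84 of 84 same-experiment pairs of arrays (r from 0.374 to 0.698), so a fit with the experiment as a block is given where it changes a count by over 1.5 times. Replicate arrays correlated at 0.986 to 0.994 and none was a copy of another. Whether p-values cover animal-to-animal spread is limited by pooling of 3 mice per experiment.

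Alternatives were the block, each experiment left out, median centring, quantile normalization, only genes with a mean above 4, the mean of a gene's probe sets, an intensity trend with robust moderation, and 1 difference per experiment. The genes, lists, motifs and tests were chosen with earlier results of these data known. All genes past the threshold in an averaged comparison are named, with arrays' ranges for the 10 largest, the 2 largest differences per complex, the highest and lowest levels, the isoform sets and the 3 largest calls per direction of each list. Figures were drawn with matplotlib 3.10.9.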

Additional observations from a re-analysis of the deposited data

How the results depend on the processing

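No called value reversed its direction under any alternative. Of the 95 genes, the averaged hormone comparison called 25. With the experiment as a block it called 43 (all 25 among them), after median centring 14, and without 1 experiment 5 to 18, with the fewest when experiment 1 was left out. Ndufv3 and Atp5j passed under all 10 alternatives, whereas Cox6a1, Ndufb5, Ndufs3, Sdha, Sdhaf4 and Uqcrc2 passed under 5. The subunit median, 0.13, was 0.11 after median centring and 0.14 among genes with a mean above 4. In shlacZ cells with DMSO the count was 2, with 8 under the block, 1 after median centring and 0 to 1 without 1 experiment. In shFOXA2 cells with DMSO it was 3, with 12 under the block, 1 after quantile normalization and 0 without any 1 experiment. In shlacZ cells with GW4064 it was 1, with 2 under the block, 0 with the trend and 0 without any 1 experiment. In shFOXA2 cells with GW4064 it was 2, with 9 under the block, 1 after median centring, 0 after quantile normalization, 0 with the trend and 0 without any 1 experiment. Leaving out an experiment leaves fewer arrays, and the cause of the other changes was not tested. The shares of all genes called with the block are given above. For centring, quantile normalization, the trend and the fits without 1 experiment they are not given. Those counts therefore cannot be set against other genes. The counts for GW4064, the hairpin and the interactions stayed at 0 under every alternative run. Small changes of genes near the floor may be missed on these probes, although some dim genes such as Ppargc1b passed.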

Other observations

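Ndufa4l2, an NDUFA4 paralogue known in other cells as a target of hypoxia-inducible factor, differed between experiments more than any other of the 95 genes. The 8 arrays of experiment 3 averaged 6.62, against 3.85 for those of experiment 1 and 3.62 for those of experiment 2, a span of 3.00. The next largest spans were 0.71 (Ndufa8), 0.68 (Ndufb9), 0.60 (Atp5d) and 0.55 (Ndufs8), and the median span was 0.17 over the 95 genes and 0.14 over all genes. Its hormone difference was 0.04 (SE 0.63, and higher in 6 of 12 pairs). The mean of the endothelial markers had medians of 5.56, 4.58 and 4.84 in experiments 1, 2 and 3, that of the stellate markers 3.76, 3.49 and 3.40, and that of the hepatocyte markers 10.79, 10.36 and 10.88; their part in the Ndufa4l2 values was not tested.

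Probe sets shared by several genes were left out of the counts. Cox6c, on a set shared with Gm6265 (mean 10.05), had a glucagon minus insulin difference of 0.21. Ndufs6, on a set shared with Ndufs6b (mean 9.84), had 0.12, Ndufb4 with its copies 0.15, Ndufb2 with Adck2 0.09 and Uqcr10 with Gm6293 -0.09. Cycs is measured by several probe sets of its own, and the brighter ones had differences of -0.02, -0.07 and -0.11.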
